A study of Homo sapiens with 16 samples.

Results

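Genes that interferons induce, and genes that detect foreign or misplaced nucleic acids, were examined in G401 cells after deletion of BRD9. The set holds 48 gene symbols chosen by name, out of 57820 genes in the deposited tables, and 49 rows carry one of them because TAP2 appears under 2 Ensembl identifiers. G401 was derived from a kidney rhabdoid tumor and has lost SMARCB1, a subunit of the SWI/SNF chromatin remodeler that had been classed as core. BRD9 is a bromodomain subunit of one form of that remodeler, a form that the authors report to lack SMARCB1. Cells edited at BRD9 (BRD9 KO) were set beside cells with a control guide to LacZ, a gene absent from human cells, and RNA was sequenced on days 1, 2, 3 and 5. Each guide had 2 libraries a day, 16 in all, and all of them were of this same SMARCB1-deficient line. According to the methods for CRISPR-Cas9, Cas9 and the guides were delivered by lentivirus with blasticidin and puromycin selection. The part of this viral vector and of these drugs in the levels described below was not tested, and no added interferon or nucleic acid ligand is named. The edited G401 cells are not described as a clone, and the sources used here do not say from when the days were counted. The growth medium was the same for both guides. The replicates are called biological without a statement that they were separate cultures, and the p-values measure only the spread between these libraries, which may be technical. In bulk RNA, fewer cells that express a gene and less of its RNA per cell cannot be told apart.

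Cells sense viral RNA in the cytosol with RIG-I, MDA5 and LGP2 (DDX58, IFIH1 and DHX58), of which RIG-I and MDA5 signal through the mitochondrial adaptor MAVS. They sense DNA with cGAS, which signals through STING (TMEM173). Both routes activate IRF3 and IRF7 and so the interferon genes. Secreted interferon then acts through its receptors and JAK kinases on a complex of STAT proteins and IRF9, which binds interferon-stimulated response elements and induces antiviral effectors. Interferons also raise the MHC class I pathway, in which the immunoproteasome cuts peptides, TAP1 and TAP2 carry them into the endoplasmic reticulum, and HLA heavy chains present them together with B2M.

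The libraries held 9185808 to 16560669 counts in BRD9 KO cells and 11252814 to 15430060 in LacZ cells. Values are given as CPM, the count scaled to the library total and between libraries by TMM, and comparisons of level between genes use TPM, which also divides by transcript length. Calls are those of edgeR's quasi-likelihood test at an adjusted p under 0.05 over the 15027 genes tested, and a called gene is described as higher or lower in BRD9 KO cells. BRD9 itself was at 16.6 to 25.9 CPM in the BRD9 KO libraries and 45.8 to 64.5 CPM in the LacZ libraries, which separates the labelled groups, and its RNA was still present in every BRD9 KO library. The line's own markers were in place, with VIM, KRT8 and KRT18 at 1366 TPM or more in every library and SMARCB1 at 2 counts or fewer. These markers themselves differed between the guides on days 2, 3 and 5. KRT8 was higher in BRD9 KO cells by 0.14, 0.35 and 0.53 on the log2 scale and KRT18 by 0.18, 0.39 and 0.53, while VIM had -0.08, -0.07 and -0.07, all of them called. The part of these shifts in the results below was not tested. Of 12 leukocyte markers, 7 to 9 were at 0 in a BRD9 KO library and 6 to 10 in a LacZ library, PTPRC, CD3D, CD3E, CD2 and MS4A1 among them in every library. The summed level of the 12 was 132 to 170.1 CPM in BRD9 KO and 135 to 166 CPM in LacZ libraries, nearly all of it CD74, the MHC class II invariant chain. Summed over all members, the level was 2341 to 2593 CPM in BRD9 KO and 2315 to 2542 CPM in LacZ libraries.

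The DNA just before the start of 4 members is shown because these genes carry the contrasts described below: DDX58 and TAP1 diverged between the guides, IFI6 differed between the guides while increasing in both, and IFIT1 stayed near the limit of detection. The sequences are RefSeq's promoter entries (assembly GRCh38.p14), cut at the start that either RefSeq or GENCODE gives, whichever comes first, and placed on GRCh37 by exact match. The DDX58 stretch is chr9:32526207-32526444, IFI6 is chr1:27998724-27998953 and TAP1 is chr6:32821594-32821731, all on the minus strand, and IFIT1 is chr10:91152130-91152302 on the plus strand. Capitals mark 2 motifs searched on both strands, the interferon-stimulated response element in the form GAAANNGAAA and the NF-kappaB site in the form GGGANTTTCC.
DDX58: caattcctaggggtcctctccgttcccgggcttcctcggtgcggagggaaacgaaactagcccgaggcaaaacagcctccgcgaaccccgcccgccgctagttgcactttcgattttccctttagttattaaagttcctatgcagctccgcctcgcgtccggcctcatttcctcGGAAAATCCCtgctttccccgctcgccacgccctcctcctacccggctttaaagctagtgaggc
IFI6: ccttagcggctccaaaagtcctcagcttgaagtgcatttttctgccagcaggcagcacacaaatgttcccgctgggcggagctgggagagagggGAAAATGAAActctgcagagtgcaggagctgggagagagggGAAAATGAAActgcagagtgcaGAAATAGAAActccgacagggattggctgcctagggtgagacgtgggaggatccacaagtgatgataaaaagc
TAP1: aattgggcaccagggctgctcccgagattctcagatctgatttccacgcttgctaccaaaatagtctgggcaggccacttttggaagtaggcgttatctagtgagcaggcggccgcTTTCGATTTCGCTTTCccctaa
IFIT1: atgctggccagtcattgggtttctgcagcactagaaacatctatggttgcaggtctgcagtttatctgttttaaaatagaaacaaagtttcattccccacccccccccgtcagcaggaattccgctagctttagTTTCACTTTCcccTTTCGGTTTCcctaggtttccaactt
In IFI6 the response element begins 156, 115 and 93 bases before the RefSeq start. TAP1 has overlapping copies beginning 134 and 128 bases before it, and IFIT1 has copies 116 and 103 bases before it. The DDX58 window held no match to the response element as spelled and 1 to the NF-kappaB form, 76 bases before the start. TAP1 has 1 NF-kappaB form too, 72 bases before the start in bases not shown.
Promoter entries of 250 bases before to 50 after a start were found for 36 of the 48 symbols. Of these, 23 (63.9%) held the response element and 5 (13.9%) the NF-kappaB form in at least 1 entry, against 4.38% and 0.678% of all 27305 symbols in the table. The response element was in 16 of the 27 matched members that were expressed enough to test and in 7 of the 9 that were not. A match describes the letters only.

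Of the 48 symbols, 35 passed the filter on low counts and 13 did not. The 13 were OAS1, OAS2, OASL, IFIH1, IFIT2, IFIT3, IFI27, IFI44, IFI44L, MX1, MX2, XAF1 and PSMB8. IFI44, IFI44L and MX1 had 0 counts in all 16 libraries, which allows up to 0.181 to 0.332 CPM in a BRD9 KO and 0.197 to 0.267 CPM in a LacZ library (3 counts, counting error only). Of the 13, 11 had 2 counts or fewer in every library, and IFI27 and PSMB8 had at most 10 and 12. These members were at or near 0 with either guide on every day, among them the RNA sensor IFIH1, the GTPases MX1 and MX2 that block viral entry and replication, and 3 of the 4 oligoadenylate synthetase genes.
Upstream of them, all 9 interferon genes listed (IFNA1, IFNA2, IFNB1, IFNE, IFNG, IFNK, IFNL1, IFNL2 and IFNL3) were at 0 counts in every library. The DNA sensors AIM2 and ZBP1 were at 0 too, the sensor IFI16 had at most 1 count and cGAS (MB21D1) at most 2. The receptors and kinases were expressed, with all 15 listed genes passing the filter.

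**Figure D1:**
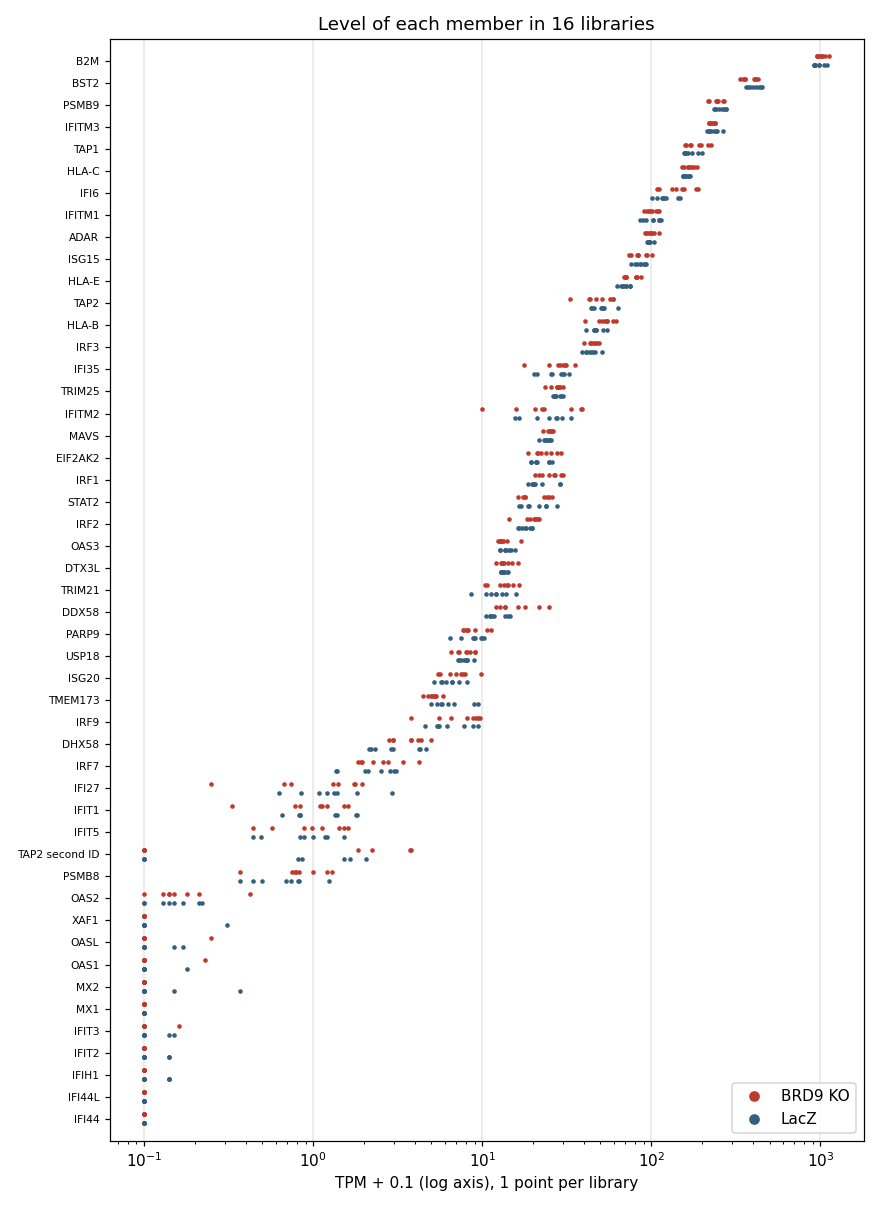
TPM (with 0.1 added, log axis) of each member in every library, 1 point per library, BRD9 KO above LacZ, ordered by the LacZ median. The levels run from a LacZ median of 958 TPM for B2M to 0 counts for IFI44, IFI44L and MX1, and for nearly all members the points of the guides lie over each other.

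At the other end stood B2M, the invariant light chain of MHC class I, with a median of 1002 TPM in BRD9 KO and 958 TPM in LacZ libraries. BST2, a membrane protein that tethers budding virions, followed at 380.1 TPM in BRD9 KO and 409 TPM in LacZ libraries. PSMB9, a catalytic subunit of the immunoproteasome, was 3rd in LacZ libraries, at 218 to 268 TPM in BRD9 KO and 233 to 278 TPM in LacZ libraries. Its partner subunit PSMB8, in the same gene cluster, was at 0.27 to 1.19 TPM over all libraries. By their LacZ medians 8 rows were over 100 TPM, 18 between 10 and 100 and 10 under 10. The sensors were among the less abundant of these, with DDX58 at 11.9 to 24.7 TPM in BRD9 KO and 10.5 to 14.5 TPM in LacZ libraries.

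On day 1 no member was called. edgeR called 0 of 36 tested rows, against 0.539% of all genes (0.273% higher and 0.266% lower). At an unadjusted p under 0.05 there were 5, and DESeq2 and limma-trend also called 0. The share of all genes at that unadjusted threshold is not given here. The median log2 fold change over the rows was -0.0087, against 0.000016 over all genes.
On day 2 there were 2 members higher and 0 lower, DDX58 and IFI6, against 2.7% of all genes (1.12% higher and 1.58% lower). DDX58 had 31.2 and 32.7 CPM in BRD9 KO cells, against 24.7 and 24.9 CPM in LacZ cells, and its log2 fold change was 0.36 (adjusted p = 0.0103, standard error 0.075). IFI6 had 59.6 and 63.7 CPM in BRD9 KO cells, against 52.7 and 45.5 CPM in LacZ cells, and its log2 fold change was 0.32 (adjusted p = 0.00445, standard error 0.060). The groups did not overlap for either gene, and on day 1 they had overlapped for both. The DDX58 call was lost when any 1 of the 4 libraries of the day was left out (adjusted p of 0.0536 to 0.0981) and with limma-trend (0.423), and the IFI6 call when replicate 2 of BRD9 KO (0.0587) or of LacZ (0.105) was left out.
On day 3 there were 5 members higher and 0 lower, against 10.4% of all genes (4.59% higher and 5.85% lower). On day 5 there were 7 higher and 2 lower, against 15% of all genes (7.53% higher and 7.45% lower). As shares of the rows these are 13.9% on day 3 and 25% on day 5. Without LacZ day 3 replicate 2 the day 3 count was 3. Of the 36 rows, 27 had a positive log2 fold change on day 3 and 24 on day 5, where 49.9% and 49.8% of all genes did. The medians over the rows were 0.069 and 0.066, against -0.000099 and -0.00078 over all genes.

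**Figure D2:**
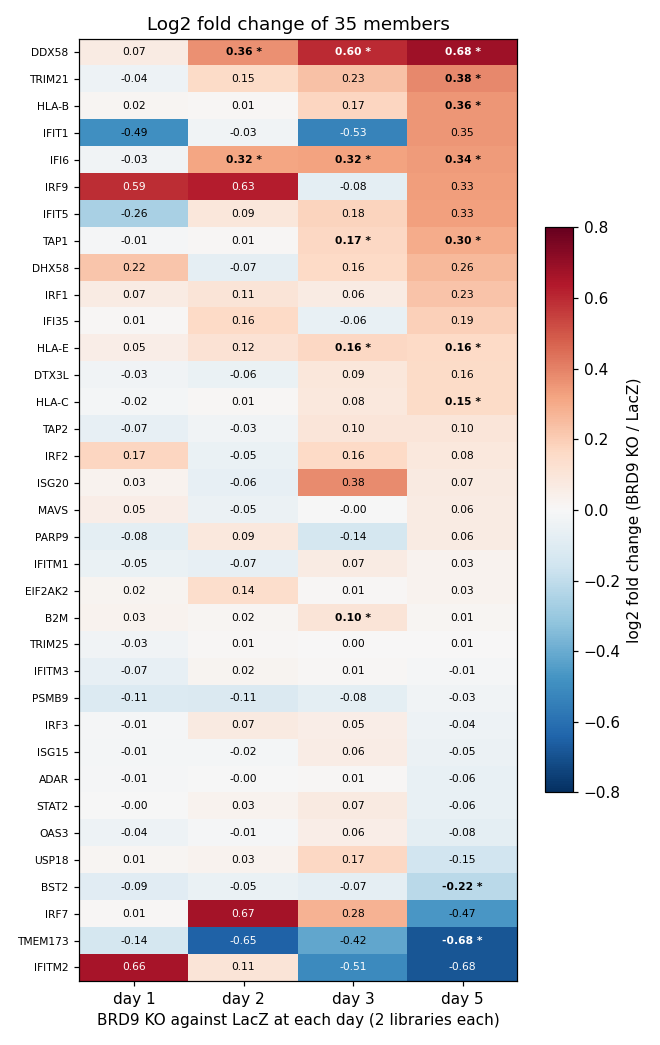
Log2 fold change of BRD9 KO over LacZ on each day for the 35 tested members, ordered by day 5, with called values in bold with a star (edgeR). DDX58 and IFI6 are called on days 2, 3 and 5, TAP1 and HLA-E on days 3 and 5, and only BST2 and TMEM173 are called lower.

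Among the sensors and adaptors DDX58 was called higher and TMEM173 lower. DDX58 (ENSG00000107201.5, GRCh37 chromosome 9, 32455300 to 32526206, minus strand) encodes RIG-I, the helicase that binds RNA with a free triphosphate end. By the spans of the whole genes, GENCODE places ENSG00000288684 over DDX58 on the same strand. The part of that overlap in the DDX58 counts was not tested. On day 3 DDX58 stood at 52.8 and 58.8 CPM in BRD9 KO cells, against 36.1 and 37.2 CPM in LacZ cells. On day 5 it stood at 41.6 and 44.5 CPM in BRD9 KO cells, against 26.6 and 27.6 CPM in LacZ cells. Every BRD9 KO library lay above every LacZ library of its day on days 2, 3 and 5, though LacZ cells of day 3 were themselves above those of the other days. The log2 fold changes were 0.60 on day 3 (95% interval 0.47 to 0.72, adjusted p = 2.58e-06) and 0.68 on day 5 (0.53 to 0.82, adjusted p = 9.88e-07), where BRD9 KO cells were 59.9% above LacZ cells. Over the 13 alternatives tried for each of these days the call was kept, with an adjusted p of at most 0.00642 on day 3 and 0.00801 on day 5.
TMEM173 (ENSG00000184584.8), which encodes the DNA-sensing adaptor STING, had 4.09 and 4.87 CPM in BRD9 KO cells on day 5, against 6.1 and 8.55 CPM in LacZ cells. Its day 5 log2 fold change was -0.68 (95% interval -1.07 to -0.29, adjusted p = 0.0162). The BRD9 KO libraries were below the LacZ libraries on days 2, 3 and 5, but the LacZ pair itself was far apart. The call did not hold when BRD9 KO replicate 1 (0.110) or LacZ replicate 2 (0.229) of the day was left out, with DESeq2 (0.127), with limma-trend (0.353) and from the libraries of the day alone (0.0516). On day 2 the value was -0.65 without passing the test (adjusted p = 0.0822).
The other expressed members of this role, MAVS and DHX58, were not called on any day. MAVS stood at 0.063 on the log2 scale on day 5 (95% interval -0.039 to 0.17). DHX58, at 1.78 to 4.19 CPM, had 0.26 (-0.33 to 0.85), an interval wide enough to hold a change like that of DDX58.

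IFI6 was the 1 antiviral effector called higher. It encodes a small protein of mitochondria and endoplasmic reticulum that limits flavivirus replication. It had 68.5 and 71.0 CPM in BRD9 KO cells on day 3, against 56.4 and 55.2 CPM in LacZ cells. On day 5 it had 82.8 and 85.9 CPM in BRD9 KO cells, against 65.9 and 68.1 CPM in LacZ cells. The groups did not overlap on either day, and the log2 fold change hardly moved, at 0.32 on day 3 (adjusted p = 0.000812) and 0.34 on day 5 (95% interval 0.23 to 0.45, adjusted p = 0.00014). Both calls held in all 13 alternatives, with an adjusted p of at most 0.0169 and 0.00648. GENCODE places ENSG00000225886 on the opposite strand of IFI6 and LINC02574 on the same strand, by the spans of the whole genes. The library kit does not keep the strand. Reads from a stretch that transcripts of IFI6 and of either other gene cover cannot be told apart. The size of any such share was not tested. The spread of RSEM's own estimate was 0% of the count for IFI6.
BST2 (ENSG00000130303.8) was lower on day 5, at 194 and 186 CPM in BRD9 KO cells, against 224 and 217 CPM in LacZ cells. The groups were apart by more than the spread within either pair. The log2 fold change was -0.22 (95% interval -0.29 to -0.14, adjusted p = 0.000249), and it held in all 13 alternatives, with an adjusted p of at most 0.0113. On days 1 to 3 the values were -0.09, -0.05 and -0.07, none of which passed the test.
Of the 13 effectors tested, 11 were not called on day 5, IFI35 and ISG20 among them, with log2 fold changes of -0.68 to 0.35. ISG15, the ubiquitin-like modifier that is among the most strongly interferon-induced genes in most cells, had -0.05 on the log2 scale on day 5 (95% interval -0.21 to 0.12). It was at 27.7 and 31.6 CPM in BRD9 KO cells on day 5, against 30.4 and 31.4 CPM in LacZ cells, so the groups overlapped. OAS3, the 1 oligoadenylate synthetase gene expressed, had -0.08 (-0.20 to 0.05), and the membrane proteins IFITM1 and IFITM3, which block viral fusion, had 0.03 and -0.01. EIF2AK2, the RNA-activated kinase PKR, had 0.03 (-0.07 to 0.12) and ADAR, which edits double-stranded RNA, had -0.06 (-0.11 to -0.01, adjusted p = 0.0966). IFIT1 and IFIT5, which bind viral RNA ends, were at 0.253 to 1.9 and 0.67 to 2.19 CPM over all libraries, with intervals of -0.66 to 1.37 and -0.62 to 1.28 on day 5. At this depth a difference of the size seen for DDX58 was not detectable in them.

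The MHC class I pathway held most of the other calls. Of its 7 tested symbols in the set, 3 were higher on day 3 and 4 on day 5, with 0 lower on either day. Of all genes 4.59% and 7.53% were higher on these days. Among 13 further antigen presentation genes tested, 0 were higher and 1 lower on day 3, and 1 was higher and 2 lower on day 5. The median log2 fold change of these 13 on day 5 was -0.035. TAP1 (ENSG00000168394.9, GRCh37 chromosome 6, 32812986 to 32821593, minus strand), the peptide transporter subunit, had 341 and 333 CPM in BRD9 KO cells on day 3, against 307 and 293 CPM in LacZ cells. On day 5 it had 304 and 300.4 CPM in BRD9 KO cells, against 245 and 248 CPM in LacZ cells. The groups had overlapped on days 1 and 2 and were apart on days 3 and 5. The log2 fold change was 0.17 on day 3 (adjusted p = 0.000854) and 0.30 on day 5 (95% interval 0.23 to 0.36, adjusted p = 1.01e-06), and both calls held in all 13 alternatives.
PSMB9 lies head to head with TAP1 and overlaps it on the other strand in GENCODE, by the spans of the whole genes. PSMB8-AS1 overlaps TAP1 on the other strand too. Reads from a stretch that transcripts of more than 1 of these genes cover cannot be told apart. The spread of RSEM's own estimate was 0.13% of the count for TAP1 and 0% for PSMB9. PSMB9 had 103 and 105 CPM in BRD9 KO cells on day 5, against 104 and 108 CPM in LacZ cells, overlapping groups and a log2 fold change of -0.03 (95% interval -0.10 to 0.05).
HLA-B, a classical class I heavy chain, had 50.5 and 52.3 CPM in BRD9 KO cells on day 5, against 40.2 and 40.4 CPM in LacZ cells. This is 0.36 on the log2 scale (95% interval 0.20 to 0.51, adjusted p = 0.00182). This call held in all 13 alternatives, with an adjusted p of at most 0.0349. HLA-C, the other classical heavy chain in the set, had 158 and 150.0 CPM in BRD9 KO cells on day 5, against 137 and 139 CPM in LacZ cells, a log2 fold change of 0.15 (adjusted p = 0.00347, and 0.0554 without BRD9 KO day 5 replicate 1). HLA-E, a non-classical chain that natural killer cells read through NKG2A, had 123 and 121 CPM in BRD9 KO cells on day 5, against 108 and 111 CPM in LacZ cells.
The groups did not overlap for any of the 3 heavy chains on day 5. They also did not overlap for members not called that day, B2M and MAVS among them. The share of all genes without overlap was not computed. HLA-E had log2 fold changes of 0.16 on day 3 (adjusted p = 0.00632, and 0.112 without LacZ day 3 replicate 2) and 0.16 on day 5 (adjusted p = 0.00471, and 0.0733 without LacZ day 5 replicate 1). Reads can be shared between HLA genes, and the spread of RSEM's own estimate was 0.26% to 0.68% of the count for these 3 heavy chains. GENCODE also places ENSG00000271581 and ENSG00000285647 on the opposite strand of HLA-B and DHFRP2 on the same strand. The part of these overlaps in the HLA-B counts was not tested.
B2M was called on day 3 only, with 316 and 329 CPM in BRD9 KO cells, against 302 and 297 CPM in LacZ cells, a log2 fold change of 0.10 (adjusted p = 0.0374). That call did not hold when BRD9 KO replicate 2 (0.264), LacZ replicate 1 (0.0840) or LacZ replicate 2 (0.211) of the day was left out, or with limma-trend (0.0793). On day 5 its value was 0.01 (95% interval -0.05 to 0.08). TAP2, under its main identifier, had 0.10 on both days without passing the test. The other TAP2 identifier took counts in 9 of 16 libraries, with an RSEM spread of 99.3% of the count. Summed over both, a choice made after seeing the data, TAP2 had 0.12 on day 5 (adjusted p = 0.0448), and its difference grew by 0.15 between the early and late days (adjusted p = 0.0246).

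**Figure D3:**
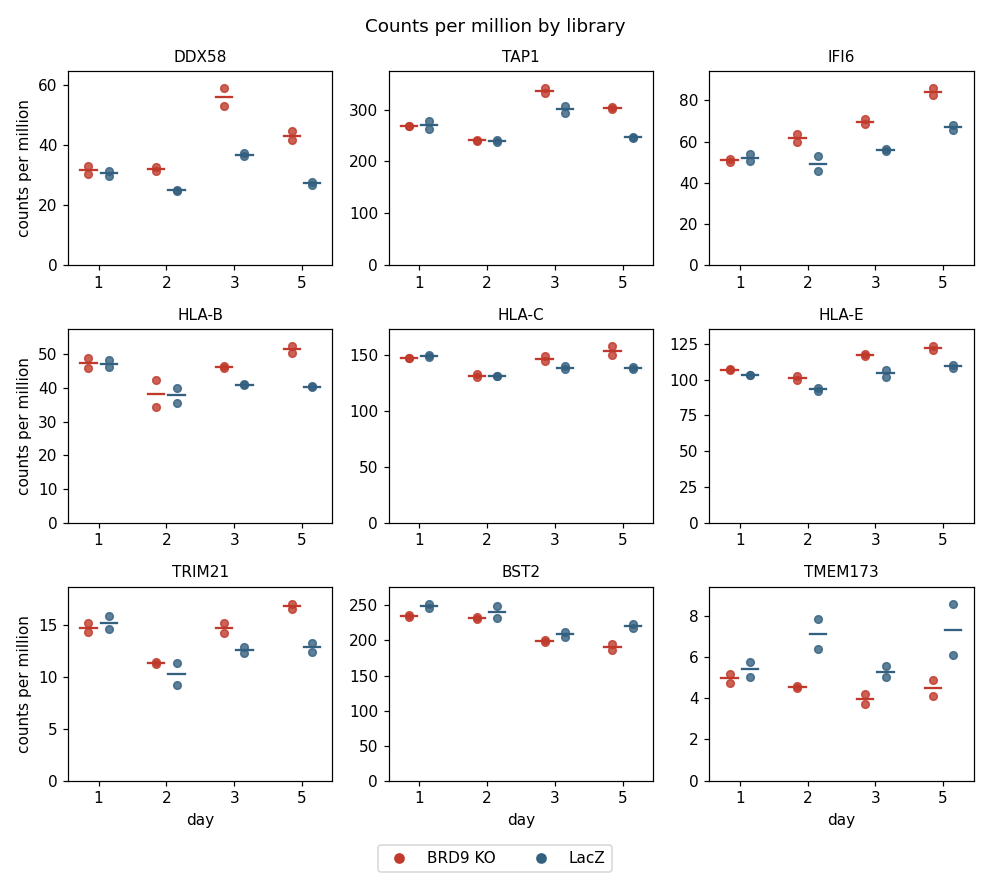
CPM by day in every library for the 9 members called on day 5, 1 point per library with a line at the group mean, BRD9 KO left of LacZ, vertical axes from 0. BRD9 KO points lie above LacZ points on day 5 for DDX58, TAP1, IFI6, HLA-B, HLA-C, HLA-E and TRIM21 and below them for BST2 and TMEM173.

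None of the 6 transcription factors of the pathway (STAT2, IRF1, IRF2, IRF3, IRF7 and IRF9) was called between the guides on any day by edgeR, DESeq2 or limma-trend. At an unadjusted p under 0.05 edgeR gave 2, 1, 0 and 1 of them on days 1, 2, 3 and 5. Their log2 fold changes on day 5, IRF2 included, were -0.47 to 0.33. Of all genes edgeR called 0.539%, 2.7%, 10.4% and 15% on these days at the adjusted threshold. The share of all genes at the unadjusted threshold is not given here. IRF1, an interferon-gamma-induced activator of class I genes, came nearest on day 5, at 24.5 and 25.6 CPM in BRD9 KO cells, against 21.9 and 20.8 CPM in LacZ cells. The groups did not overlap, and the log2 fold change of 0.23 (95% interval 0.06 to 0.40) had an adjusted p of 0.061. STAT2, the subunit that brings transactivation to the interferon complex, had -0.06 (-0.27 to 0.15) on day 5. IRF3, the factor that the sensors activate, had -0.04 (-0.19 to 0.10). IRF9, the DNA-binding subunit, was at 2.91 to 6.3 CPM over all libraries and had 0.59 on day 1 and 0.63 on day 2 (adjusted p = 0.317 and 0.196), and -0.08 on day 3. IRF7 was at 0.597 to 2.85 CPM, with intervals that span both directions on each day.
Of the 5 members that act in ISG15 or ubiquitin conjugation or ADP-ribosylation, TRIM21 was called on day 5. TRIM21, a ubiquitin ligase that binds antibody in the cytosol, had 16.6 and 17 CPM in BRD9 KO cells, against 13.3 and 12.5 CPM in LacZ cells, and the groups did not overlap. TRIM21 differed by 0.38 on the log2 scale (95% interval 0.18 to 0.58, adjusted p = 0.0094). It was not called when replicate 2 of BRD9 KO (0.0814) or of LacZ (0.0842) on that day was left out, with DESeq2 (0.151) and with limma-trend (0.181). TRIM25, the ligase known for its part in RIG-I signalling, had 0.01 (95% interval -0.10 to 0.11). USP18, which removes ISG15, had -0.15, and PARP9 and its partner DTX3L had 0.06 and 0.16, with none passing the test. PARP9 and DTX3L overlap head to head on opposite strands, so a share of their reads cannot be told apart.

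Whether the difference between the guides itself changed with time was tested as the mean log2 fold change of days 3 and 5 minus that of days 1 and 2. Of 36 rows 4 were higher and 1 lower, against 3.41% and 4.03% of all genes, and the median was 0.046. For DDX58 the difference grew by 0.42 (95% interval 0.27 to 0.57, adjusted p = 0.000633) and for TAP1 by 0.23 (0.17 to 0.30, adjusted p = 4.74e-05). Both calls held when any 1 of the 16 libraries was left out, with an adjusted p of at most 0.00336 and 0.000371. IFI6 did not pass this test, at 0.18 (adjusted p = 0.0623).
HLA-B had 0.25 (adjusted p = 0.044) and HLA-C 0.12 (adjusted p = 0.0336). The HLA-B call was lost for 14 of the 16 libraries left out, all but BRD9 KO day 2 replicate 2 and LacZ day 2 replicate 1, with an adjusted p of up to 0.133, and also with DESeq2 (0.0974) and limma-trend (0.101). The HLA-C call was lost for 12 of the 16, with an adjusted p of up to 0.0814, and with DESeq2 (0.118), and was kept without replicate 1 of BRD9 KO on day 2 or day 3, or without replicate 2 of BRD9 KO on day 5 or of LacZ on day 3.
IFITM2, a paralog of IFITM1 and IFITM3 in the same cluster, was the 1 member with a lower late than early difference. On days 1 and 2 it had 8.07, 9.94, 9.02 and 5.75 CPM in BRD9 KO cells, against 6.8, 4.85, 5.26 and 8.78 CPM in LacZ cells. On days 3 and 5 it had 3.98, 5.81, 2.91 and 5.78 CPM in BRD9 KO cells, against 6.3, 7.36, 7 and 7.66 CPM in LacZ cells. The early values overlapped between the guides and the late ones did not. The difference was -0.98 (95% interval -1.59 to -0.38, adjusted p = 0.0449), and it was lost for 11 of the 16 libraries left out (adjusted p of up to 0.159) and with limma-trend (0.203), had no adjusted p from DESeq2, and was kept without BRD9 KO replicate 2 of day 2, 3 or 5, LacZ day 1 replicate 1 or LacZ day 2 replicate 2. RSEM's spread for IFITM2 was 17.3% of the count, the largest among the tested symbols except the other TAP2 identifier.

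Day 5 was also compared with day 1 within each guide. These comparisons share libraries with those between the guides, and a day cannot be told apart from anything else that differed between harvests. In BRD9 KO cells 5 rows were higher and 6 lower on day 5, which is 13.9% and 16.7% of the rows. Of all genes 17.5% were called in each direction, so the members were not called more often than all genes. The median over the rows was -0.045. In LacZ cells 1 was higher and 11 lower, against 12.7% and 12.9% of all genes, with a median of -0.10. The 11 lower calls in LacZ cells are 30.6% of the rows, and 5 or 6 lower calls were left when any 1 of the 4 libraries was left out.
IFI6 was higher on day 5 than on day 1 with both guides, by 0.72 in BRD9 KO cells (adjusted p = 8.28e-09) and by 0.36 in LacZ cells (adjusted p = 0.000113). DDX58 was higher on day 5 by 0.44 in BRD9 KO cells (adjusted p = 4.28e-05), against -0.17 in LacZ cells, which did not pass the test (adjusted p = 0.101). TAP1 went opposite ways, with 0.17 in BRD9 KO cells (adjusted p = 0.000185) and -0.14 in LacZ cells (adjusted p = 0.00253, but 0.0514 without LacZ day 1 replicate 1 and 0.0683 with limma-trend).
TAP2 and HLA-E were higher on day 5 in BRD9 KO cells, by 0.30 and 0.19 (adjusted p = 0.000313 and 0.000463), while LacZ cells had 0.14 and 0.08 without passing the test. With limma-trend the TAP2 value was 0.19 (adjusted p = 0.571). HLA-B and HLA-C had 0.11 and 0.06 in BRD9 KO cells, not called, and -0.23 and -0.11 in LacZ cells (adjusted p = 0.0284 and 0.0203). For the classical heavy chains the called change with time was in the control. Both LacZ calls were lost when any 1 of their 4 libraries was left out, with adjusted p of up to 0.137 and 0.125.
Several members fell with both guides. B2M had -0.26 in BRD9 KO cells (adjusted p = 3.15e-06) and -0.24 in LacZ cells (adjusted p = 1.32e-05), and STAT2 had -0.61 in BRD9 KO cells (adjusted p = 5.96e-05) and -0.55 in LacZ cells (adjusted p = 0.000238). STAT2 stood at 20.4 and 23.1 CPM on day 5 in BRD9 KO cells, against 32.3 and 34.2 CPM on day 1, and at 24.3 and 21.3 CPM on day 5 in LacZ cells, against 36.5 and 30.8 CPM on day 1. BST2 had -0.30 in BRD9 KO cells (adjusted p = 1.98e-06) and -0.17 in LacZ cells (adjusted p = 0.000869), and IFITM3 had -0.17 in BRD9 KO cells (adjusted p = 0.0176) and -0.23 in LacZ cells (adjusted p = 0.00281). The IFITM3 call in BRD9 KO cells was lost when any 1 of its 4 libraries was left out (adjusted p of 0.0505 to 0.103).
The remaining calls were in 1 guide. In BRD9 KO cells IFITM2 had -1.01 (adjusted p = 0.0108, lost without BRD9 KO day 1 replicate 2 or BRD9 KO day 5 replicate 1, at 0.132 and 0.112) and ADAR -0.07 (adjusted p = 0.0293). The ADAR call was kept without BRD9 KO day 1 replicate 2 and lost without any other of its 4 libraries (up to 0.177), with no filter (0.182), with DESeq2 (0.113) and with limma-trend (0.926). In LacZ cells PARP9 had -0.29 and PSMB9 -0.12 (adjusted p = 0.0162 and 0.0202), with the PARP9 call lost without any library but LacZ day 1 replicate 1, and the PSMB9 call lost without replicate 1 of LacZ day 1 or day 5. IFIT5 and IFIT1 had -1.24 each in LacZ cells (adjusted p = 0.0336 and 0.0467), at 1.99 CPM or less on either day, and both were lost whichever of the 4 libraries was left out.

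**Figure D4:**
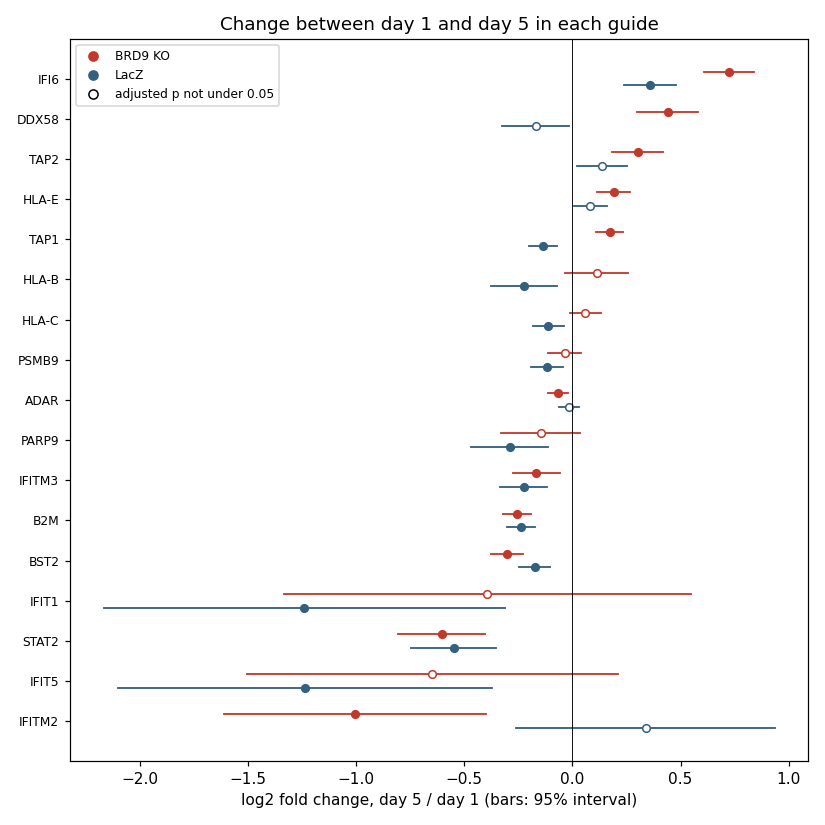
Log2 fold change of day 5 over day 1 within BRD9 KO (red, upper) and within LacZ (blue, lower) for the 17 members called in either guide, with 95% intervals, open circles not called (edgeR). TAP1 has opposite signs in the guides, DDX58 is called in BRD9 KO cells alone, and B2M, STAT2 and BST2 fell in both.

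Other genes of the pathway were read from 5 lists of 90 genes, of which 52 passed the filter. On days 1, 2, 3 and 5 there were 0, 1, 4 and 5 higher and 0, 1, 1 and 2 lower. These are 3.85%, 9.62% and 13.5% of the 52 on days 2, 3 and 5, close to the 2.7%, 10.4% and 15% of all genes. The median log2 fold changes were 0.017, 0.024, -0.0069 and 0.022. Of the 15 receptors, kinases and their regulators, 3 were higher on day 3 and 3 on day 5, with 0 lower, against 4.59% and 7.53% of all genes higher. JAK1, the kinase shared by the interferon receptors, had 415 and 422 CPM in BRD9 KO cells on day 5, against 359 and 357 CPM in LacZ cells, groups that did not overlap. JAK1 differed by 0.20 on day 3 and 0.23 on day 5 on the log2 scale (adjusted p = 2.26e-05 and 3e-06), and the difference grew by 0.14 between the early and late days (adjusted p = 0.000994). All 3 calls held in every alternative.
IFNGR2, a chain of the interferon-gamma receptor, stood at 71.3 and 76.3 CPM in BRD9 KO cells on day 3, against 59.3 and 62.2 CPM in LacZ cells. IFNGR2 had 0.27 on day 3 and 0.19 on day 5 (adjusted p = 0.00144 and 0.017). The day 3 call was lost with limma-trend alone (0.0637). The day 5 call was also lost with DESeq2 (0.0924) and when BRD9 KO day 5 replicate 1, its replicate 2 or LacZ day 5 replicate 2 was left out (0.0954, 0.0574 and 0.175).
TYK2, another receptor kinase, was called on day 3 at 0.16 (adjusted p = 0.0109) and IFNAR1, a chain of the type I interferon receptor, on day 5 at 0.14 (adjusted p = 0.0224). Leaving out BRD9 KO day 3 replicate 1 or either LacZ library of day 3 ended the TYK2 call (adjusted p of up to 0.189), and leaving out any library of day 5 ended the IFNAR1 call (up to 0.116). Neither was called by DESeq2 or limma-trend.
Of 10 further sensors and adaptors tested, 1 was called, on days 3 and 5, where 10.4% and 15% of all genes were called. TRAF3, an adaptor between MAVS and the interferon-inducing kinases, had 134 and 129 CPM in BRD9 KO cells on day 5, against 111 and 115 CPM in LacZ cells, with no overlap. TRAF3 had 0.17 on day 3 and 0.22 on day 5 (adjusted p = 0.00438 and 0.000376), both of which were lost with limma-trend alone (0.459 and 0.0647).
Among 14 further interferon-stimulated genes tested, including PARP14, PML, UBE2L6 and TRIM5, edgeR, DESeq2 and limma-trend called 0 on each of the 4 days. Of all genes edgeR called 0.539%, 2.7%, 10.4% and 15% on days 1, 2, 3 and 5, so few calls would be looked for among 14 genes. At an unadjusted p under 0.05 edgeR gave 1, 1, 1 and 3 of the 14 on days 1, 2, 3 and 5. The share of all genes at that unadjusted threshold is not given here.
In the further antigen presentation genes the loading chaperones differed in direction on day 5. PDIA3 and CALR, general folding factors of the endoplasmic reticulum that also load class I, had -0.10 and -0.08 (adjusted p = 0.00238 and 0.0016, but 0.241 and 0.175 with limma-trend). TAPBP, the tapasin that links TAP to class I chains, had 0.18 (adjusted p = 0.0449), a call that ended without BRD9 KO day 5 replicate 1 (0.344) or either LacZ library of day 5 (0.0919 and 0.253). CALR had -0.08 on day 2 and -0.06 on day 3 (adjusted p = 0.00614 and 0.0107), each lost without replicate 1 of either guide on that day (up to 0.086 and 0.159). The peptide-trimming protease ERAP2 was called on day 2 at 0.26 (adjusted p = 0.0455) and not when any library of that day was left out (0.0679 to 0.375).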

How the data were processed

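Total RNA of 16 G401 libraries was sequenced by the authors, who aligned reads to hg19 with STAR and quantified genes with RSEM (versions not given in the sources used here). The deposited files hold RSEM expected counts, TPM and posterior mean counts per gene as the authors' RSEM runs gave them. Expected counts were rounded, kept by filterByExpr (minimum count 10, minimum total 15), TMM-scaled and fitted in edgeR 4.0.16 (R 4.3.3) with a mean per group. The quasi-likelihood test was adjusted by Benjamini-Hochberg over all 15027 genes. The pipeline was tested on simulated data. Alternatives were no filter, a filter of 1 CPM in 2 libraries, DESeq2 size factors, DESeq2 1.42.0, limma-trend 3.58.1 on log2(TPM + 1), only the libraries compared, a replicate block and each library left out; posterior mean counts and summed TAP2 identifiers were added after seeing the data, as were all alternatives for other pathway genes.

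The members and lists were chosen with earlier results of these data known. Values in every library of a comparison are given for members called between the guides or between early and late days, in the comparison of smallest p. For changes with time up to 6 members per direction with the smallest p were to be named, and the other LacZ calls were added to account for all, after their values were seen. For other pathway genes up to 4 per direction on days 3 and 5 were named, and ERAP2 was added after its value was seen. Intervals and floors cover counting error or the spread between these libraries only. Positions are from GENCODE v44 lifted to GRCh37, the build the authors' hg19 corresponds to, and promoters from RefSeq.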

Additional observations from a re-analysis of the deposited data

Results flagged for a closer look

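For 5 members the difference between BRD9 KO and LacZ cells was itself not the same on the late days (3 and 5) as on the early days (1 and 2), by edgeR's test of that change. The log2 fold change grew by 0.42 for DDX58 (adjusted p = 0.000633), by 0.23 for TAP1 (adjusted p = 4.74e-05), by 0.25 for HLA-B (adjusted p = 0.044) and by 0.12 for HLA-C (adjusted p = 0.0336). For IFITM2 it was -0.98 (adjusted p = 0.0449). DDX58 and TAP1 kept the call whichever of the 16 libraries was left out. HLA-B, HLA-C and IFITM2 lost it for 14, 12 and 11 of them.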

How the results depend on the processing

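The alternatives gave 539 values of single members, all for results called in the main test, so new calls are not counted among them. Of these, 420 kept their direction and call, 119 lost the call (4 of them because DESeq2 gave no adjusted p) and 0 changed direction. Both alternatives added after seeing the data kept the direction and call of all 88 values, which cover called members only. Summing the TAP2 identifiers also brought new calls of TAP2 on day 5 and between late and early days. Of 230 values for other pathway genes, all run after seeing the data, 189 kept the call and 41 lost it. The count of members called on day 1 was 0, and 1 with no filter on low counts. On day 2 it was 2, and 1 with DESeq2 or limma-trend. Between late and early days it was 5, and 8 with no filter, 2 with DESeq2 and 3 with limma-trend. Over time in LacZ cells it was 12, and 6 with DESeq2 or limma-trend. With libraries left out singly it was 0 to 1 on day 2, 3 to 5 on day 3, 2 to 4 between late and early and 6 to 7 over time in LacZ cells. For other pathway genes the count was 2, 5, 7 and 2 on days 2, 3 and 5 and between late and early. With limma-trend it was 0, 1, 2 and 1, and on day 2 it was 1 with DESeq2 or on the libraries of the day alone. With libraries left out it was 0 to 1 on day 2 and 3 to 5 on day 3. How many of all genes were called under each alternative, or with each library left out, is not given here. The counts of members therefore cannot separate a change in the members from a change in calling at large. The causes were not tested, though fewer libraries leave fewer degrees of freedom.

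Replicate numbers were not taken as pairs: deviations of same-numbered BRD9 KO and LacZ libraries correlated at -0.0075, -0.037, -0.022 and -0.014 on days 1, 2, 3 and 5 over 15027 genes, and at -0.038, -0.12, 0.098 and 0.18 over 6309 abundant genes. With the replicate block the late minus early count was 3, without HLA-C (adjusted p = 0.0524) and IFITM2 (0.0561), the LacZ time call of IFIT1 was lost (0.0603), and the other counts were within 1.5 times of their values. The late minus early comparison uses all libraries, so it has no fit on its own libraries alone. Depth limits members of few counts, such as IFIT1, whose day 5 interval ran from -0.66 to 1.37.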
